A study of Homo sapiens with 6 samples.

Results

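RAB GTPases are a large family of small GTPases of membrane traffic, and the genes described here are all of its protein-coding members with a numbered RAB symbol other than RAB7A and RAB7B. They were chosen by symbol and annotated biotype alone, which gave 61 of the 58735 genes listed in the expression table, or of its 19951 protein-coding genes. A RAB protein cycles between an inactive form bound to GDP, held in the cytosol by an extraction factor, and an active form bound to GTP, which sits on a membrane through a prenyl anchor. Exchange factors load GTP, GTPase-activating proteins end the active state, and effectors bind the active form to tether, move or fuse vesicles. Because each RAB marks particular membranes, the genes are reported by the organelle with which their protein is mainly associated, namely the early endosome, the recycling endosome, the late endosome and lysosome, the ER and Golgi, the secretory route to the cell surface, and other locations.

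RNA-seq was performed on HCT116 cells, a human colorectal carcinoma line with epithelial features, to examine how miR-8485 alters their transcriptome. Cells of the control group (CTR, 3 libraries, genotype label WT) and cells given 50 nM miR-8485 mimics (miR-8485, 3 libraries, genotype label miR-8485 mimics) were compared, and cells were collected 48 h after transfection. The sequence and dose of the control transfection are not given in the sources used here, and all 6 libraries come from the same cell line. The study's methods describe the 3 replicates of a group as independent biological replicates. Values are FPKM, fragments scaled to gene length and to the library total, so they do not show how much RNA a cell holds in all, and levels of different genes are compared per unit of length.

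The fragments behind the FPKM were recovered as whole numbers, and each library held between 17473874 and 18480047 fragments on listed genes. The chi-square per gene of fragments was 2.68 to 9.60 between libraries of a group and 54.4 to 62.4 between groups. The upper end within a group came from CTR replicate 1, with 9.60 and 7.74 against CTR replicates 2 and 3. The other pairs within a group gave 2.68 to 3.67. Of 8 colon epithelial markers, 6 reached 1 FPKM, among them EPCAM at 127 to 148 FPKM, whereas VIL1 and LGALS4 stayed at or below 0.0836 FPKM. The summed level of these 8 markers was 2613 to 2838 FPKM in CTR and 1751 to 1838 FPKM in miR-8485, and its part in the RAB results was not tested. Of 5 fibroblast markers 1 reached 1 FPKM, COL1A1 at 4.05 to 6.402 FPKM, and the summed level of these markers was 4.17 to 4.404 FPKM in CTR and 6.29 to 6.43 FPKM in miR-8485. None of the leukocyte, endothelial and neuronal markers reached 1 FPKM in any library. In bulk RNA a lower level in every cell and a smaller number of cells that express a gene cannot be told apart.

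The transfected mimic, as the study's methods spell it, carries at bases 2 to 8 the seed, the stretch by which a miRNA pairs with a target and which is in capitals here.
miR-8485 mimic: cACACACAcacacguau
The DNA letters that pair with this seed, TGTGTGT, were searched on the transcript strand of the longest annotated 3′ UTR of each gene, with overlapping matches counted. They occurred in 13 of the 43 tested RAB genes, or 30.2%, and in 30.2% of the 10674 tested genes with an annotated 3′ UTR. The sites of the 8 RAB genes that both held a match and changed in miR-8485 are shown, as examples of stretches with which the mimic seed could pair. The other 5 tested RAB genes with a match did not pass the test, and their sites are not shown. The capitals mark the match, the coordinates are those of GRCh38, and all stretches lie in 3′ UTRs of GENCODE release 44.
RAB1A, chr2:65088239-65088267, minus strand: ttataaaataaTGTGTGTaatccttgttg
RAB1A, chr2:65087775-65087803, minus strand: acacagccattTGTGTGTgcacaatgcaa
RAB8A, chr19:16133016-16133044, plus strand: caaggggacgcTGTGTGTgctgcaagtga
RAB5B, chr12:55995788-55995816, plus strand: tatgtaaagtaTGTGTGTcacacaaaagt
RAB14, chr9:121179519-121179547, minus strand: tgacctgctggTGTGTGTgtatatttaca
RAB18, chr10:27541762-27541790, plus strand: aatttcttgttTGTGTGTgctgtggctgc
RAB22A, chr20:58360336-58360364, plus strand: tgaccttgtcaTGTGTGTgccaccaaaca
RAB29, chr1:205768190-205768218, minus strand: cggtggtttgtTGTGTGTcgttttaatgc
RAB26, chr16:2153854-2153882, plus strand: catcgtgcatcTGTGTGTcctgggagctg
RAB14 holds a further match that starts 2 bases downstream of the printed one and overlaps it. The first 7 sites belong to genes that fell, and the last 2 to genes that rose. RAB6B, which did not pass the test, held the most matches of the tested RAB genes, namely 4, against up to 46 in all tested genes. A match is a description of the letters, and binding of the mimic was not measured.

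Genes of exocytosis, ER-to-Golgi transport and recycling had the highest levels among the RAB genes of HCT116 cells. RAB10, a regulator of exocytosis and of polarised membrane delivery, had the highest level in CTR with 72.2 ± 0.466 FPKM (SD, n = 3). It was followed by RAB1A of ER-to-Golgi transport with 69.4 ± 1.69 FPKM, the epithelial recycling RAB25 with 52.2 ± 4.83 FPKM, RAB1B with 50.4 ± 3.11 FPKM and RAB11B with 48.2 ± 2.06 FPKM. These 5 genes held 41.8% of the summed RAB level in CTR, although the ranges of RAB25, RAB1B and RAB11B overlapped, so their order in CTR is not resolved. In miR-8485, RAB25 had the highest mean with 66.2 ± 1.603 FPKM, and RAB1A had moved from rank 2 to rank 5. In all, 9 RAB genes were at 20 FPKM or more in CTR, 34 others had a mean of at least 1 FPKM over the 6 libraries, and 18 lay below that minimum and were not part of the tests.

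**Figure D1:**
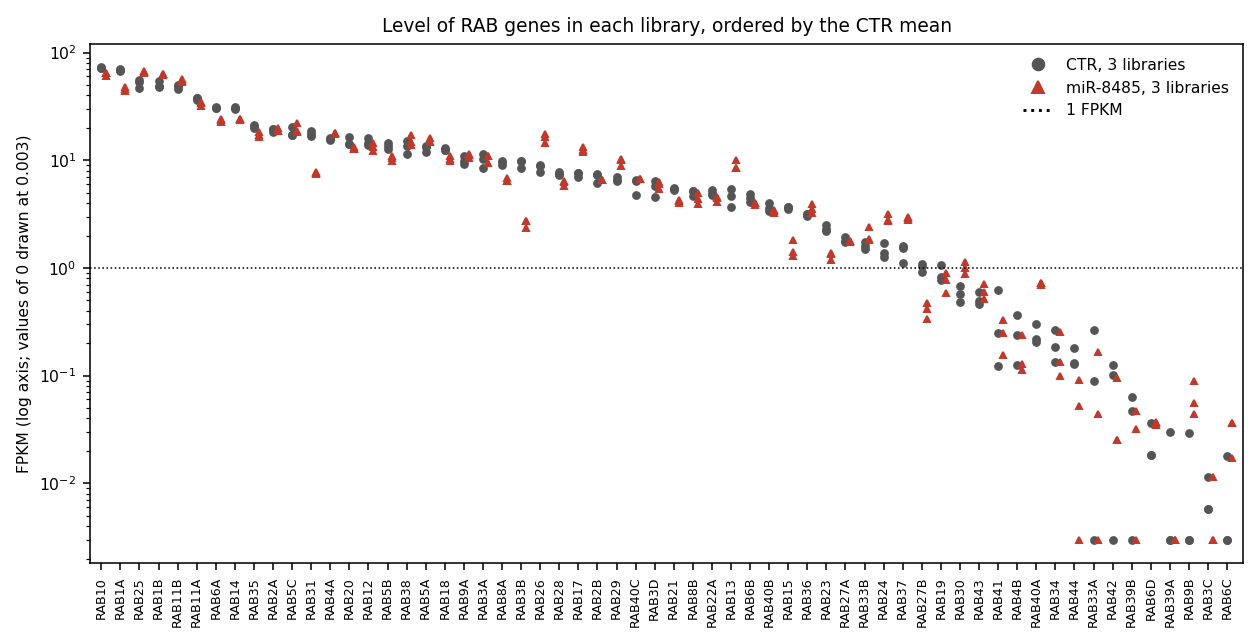
Level of each RAB gene in FPKM on a log axis, ordered by the CTR mean, with the 3 CTR libraries as grey circles and the 3 miR-8485 libraries as red triangles, and values of 0 drawn at 0.003. RAB32, at 0 in every library, is not drawn. Levels run from RAB10 at 72.2 FPKM in CTR to genes with single fragments, and the triangles of RAB31, RAB3B and RAB15 lie below their circles.

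To find which RAB genes responded, log2(FPKM + 0.1) was compared between the groups with limma, with Benjamini-Hochberg adjustment over the 12349 genes with a mean of at least 1 FPKM. A gene was said to have risen or fallen at an adjusted p under 0.05. SE denotes the standard error of the log2 fold change. Of the 43 RAB genes tested, 11 rose, or 25.6%, where 29.1% of all tested genes rose, and 17 fell, or 39.5%, where 30.5% of all tested genes fell. The other 15 did not pass the test. The 3 miR-8485 libraries lay wholly above the 3 CTR libraries for 14 RAB genes (32.5% of all tested genes) and wholly below them for 18 (34% of all tested genes), which makes 32 RAB genes without overlap (66.5% of all tested genes). In either direction, 65.1% of RAB genes and 59.6% of all tested genes passed the test, so the share of RAB genes that changed was close to that of the transcriptome. The median log2 fold change was -0.09 over the tested RAB genes and -0.0041 over all tested genes, and the median absolute log2 fold change was 0.27 and 0.33. The fold changes are on the log2(FPKM + 0.1) scale, which understates those of low genes. Rescaled to TPM, which lowered the median of all tested genes by 0.11, 8 RAB genes rose and 21 fell, so that 27.6% of the changed RAB genes rose, against 39.3% on the deposited scale. The RAB median stayed below that of all genes by a like amount, with a difference of -0.08 on both scales. That difference was not stable, since it was 0.0094 under a minimum mean of 5 FPKM and -0.017 with a GC trend removed.

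Most changes were small. Of the 28 RAB genes that changed, 12 had an absolute log2 fold change of at least 0.5 and 4 of at least 1. These 4 were RAB3B, RAB15 and RAB31, which fell, and RAB37, which rose. RAB37 only just reached this limit, at 1.0003, beside RAB13 at 0.98 and RAB24 at 0.97. Over all tested genes 29.1% rose, 30.5% fell and 59.6% did either, and each organelle class holds few genes. Of 7 early endosomal genes 5 fell and 1 rose. The number lower was 3 with no filter or after quantile normalization, and 3 of the 5 genes left under a minimum mean of 5 FPKM. The 8 tested recycling endosomal genes all passed the test, with 4 higher and 4 lower, and with 2 higher after rescaling to TPM. Among the late endosomal and lysosomal genes 2 of 5 rose and 0 fell in limma, also 0 at an unadjusted p under 0.05 and 0 with voom, although RAB12 fell after rescaling to TPM.

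**Figure D2:**
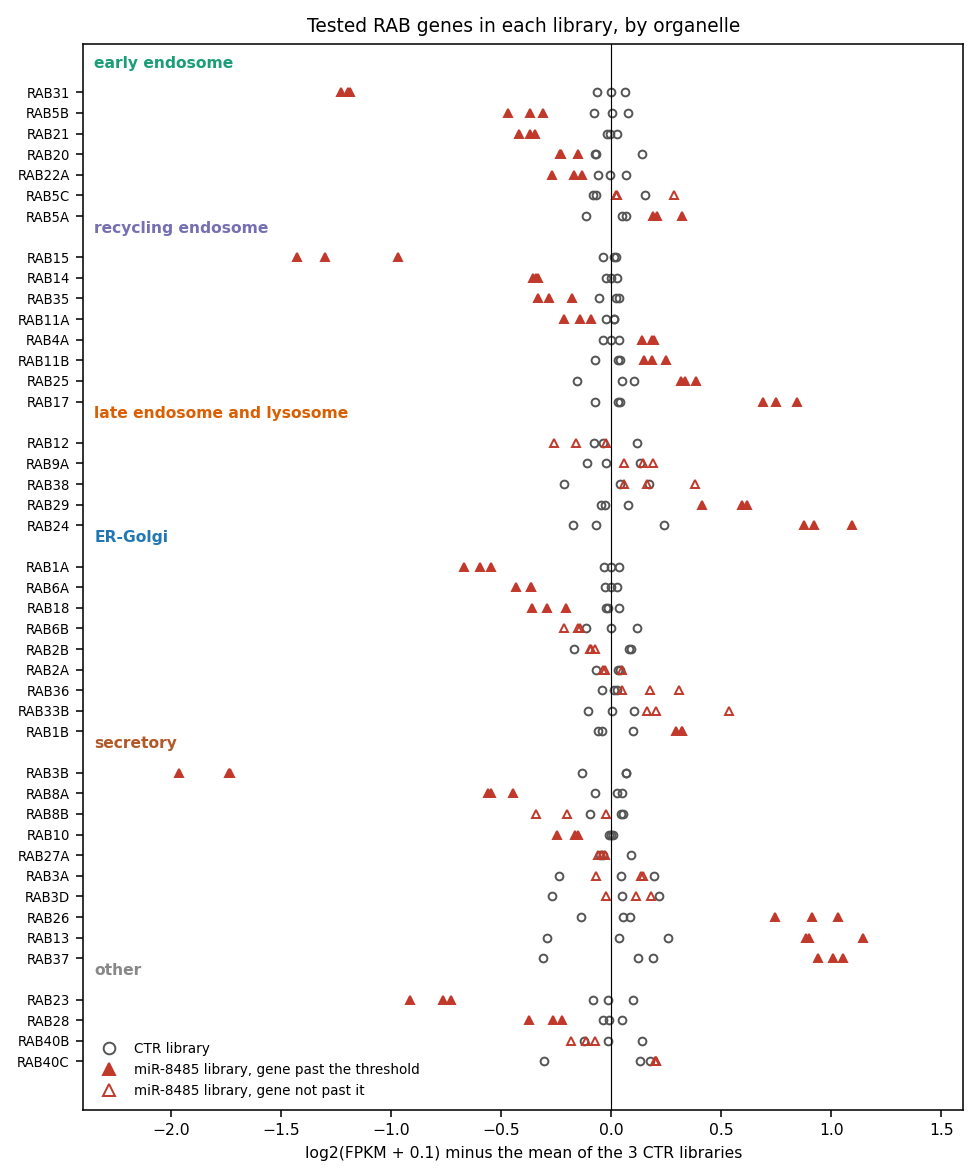
Log2(FPKM + 0.1) of each of the 43 tested RAB genes in each library minus the mean of the 3 CTR libraries, grouped by organelle, with CTR libraries as grey circles and miR-8485 libraries as red triangles, filled where the gene passed the test. RAB3B at -1.81, RAB15 at -1.23 and RAB31 at -1.20 stand to the left, and RAB37 at 1.0003 to the right.

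Among the early endosomal genes RAB31 fell the most. RAB31, a RAB5 relative of traffic between the trans-Golgi network and endosomes (chr18:9708165-9862551, hg38), was at 17.7, 16.9 and 18.5 FPKM in the CTR libraries and 7.71, 7.49 and 7.66 FPKM in the miR-8485 libraries. The groups were far apart, with a log2 fold change of -1.20 (SE 0.05, limma adjusted p = 3.7e-06). RAB5B, an isoform of the master regulator of early endosome fusion (chr12:55973913-55996683), was at 12.8, 13.6 and 14.3 FPKM in the CTR libraries and 9.78, 10.9 and 10.5 FPKM in the miR-8485 libraries. It fell without overlap of the libraries, with a log2 fold change of -0.38 (SE 0.06, limma adjusted p = 0.00146). RAB21, which acts in integrin uptake (chr12:71754874-71800285), was at 5.395, 5.52 and 5.35 FPKM in the CTR libraries and 4.17, 4.24 and 4.03 FPKM in the miR-8485 libraries. Its libraries did not overlap either, and it had a log2 fold change of -0.38 (SE 0.06, limma adjusted p = 8.4e-04). RAB5C, the most abundant gene of this class, was at 17.2, 17.3 and 20.3 FPKM in the CTR libraries and 22.2, 18.5 and 18.5 FPKM in the miR-8485 libraries. The groups overlapped here, and the value of 0.11 (SE 0.09) did not pass the test in limma (adjusted p = 0.346). A share of 28.8% of the annotated exon bases of RAB5C is also covered by another gene on the same strand. RAB5A, the third RAB5 isoform, rose by 0.24 (SE 0.07), while RAB20 and RAB22A fell by smaller amounts, with log2 fold changes of -0.20 and -0.19. These 3 calls were not stable. RAB5A was at 0.13 after rescaling to TPM (limma adjusted p = 0.155) and at 0.20 without miR-8485 replicate 3 (limma adjusted p = 0.0564). RAB22A was at -0.08 with the gene length trend removed (limma adjusted p = 0.355) and at -0.09 with the GC trend removed (limma adjusted p = 0.291). RAB20 lost its call without CTR replicate 3 or any miR-8485 replicate, with values of -0.23 to -0.13 (limma adjusted p = 0.0507 to 0.0952). RAB22A lost it too without CTR replicate 1 or 3 or miR-8485 replicate 2 or 3, with values of -0.20 to -0.15 (limma adjusted p = 0.0747 to 0.129). The summed FPKM of the 7 early endosomal genes was 84.3 to 93.1 in CTR and 73.1 to 75.7 in miR-8485, or 12.5% and 10.98% of the summed RAB level. Most of the fall of this sum, from a mean of 87.7 to 74.4 FPKM, was that of RAB31, from 17.7 to 7.62 FPKM.

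The recycling endosomal genes were split between strong members of opposite direction. RAB15, which acts on early and recycling endosomes (chr14:64945814-64973226), was at 3.54, 3.69 and 3.67 FPKM in the CTR libraries and 1.29, 1.81 and 1.41 FPKM in the miR-8485 libraries. Every miR-8485 library was lower, with a log2 fold change of -1.23 (SE 0.13, limma adjusted p = 1.5e-04), on 116 to 335 fragments per library. RAB17, an epithelial RAB of apical recycling and transcytosis (chr2:237574322-237601614), was at 7.62, 7.04 and 7.57 FPKM in the CTR libraries and 13.4, 12.5 and 11.99 FPKM in the miR-8485 libraries. It rose without overlap, by a log2 fold change of 0.76 (SE 0.06, limma adjusted p = 4.3e-05). RAB25, the epithelial member of the RAB11 subfamily and the most abundant gene of this class (chr1:156061160-156070514), was at 55.95, 46.7 and 53.8 FPKM in the CTR libraries and 64.9, 65.7 and 67.99 FPKM in the miR-8485 libraries. The lowest miR-8485 library lay above the highest CTR library, and RAB25 had a log2 fold change of 0.35 (SE 0.07, limma adjusted p = 0.003696). Its closest relatives moved apart, since RAB11B rose by 0.19 (SE 0.05) and RAB11A fell, with a log2 fold change of -0.15 (SE 0.05), but neither call was stable. With the GC trend removed RAB11A was at -0.0067 (limma adjusted p = 0.905) and RAB11B at 0.05 (limma adjusted p = 0.330). Removal of the trend with length put them at -0.11 (limma adjusted p = 0.0621) and 0.10 (limma adjusted p = 0.0844). RAB11B also lost its call after rescaling to TPM (0.08, limma adjusted p = 0.283). The call of RAB11A was lost as well without CTR replicate 2 or 3 or miR-8485 replicate 1 or 2, with values of -0.15 to -0.12 (limma adjusted p = 0.0589 to 0.0713). RAB14, of traffic between Golgi and endosomes, was at 31.1, 30.4 and 30.001 FPKM in the CTR libraries and 23.8, 24.2 and 24.02 FPKM in the miR-8485 libraries. It fell in every library, with a log2 fold change of -0.34 (SE 0.04, limma adjusted p = 2.4e-04). RAB35, of fast recycling and cytokinesis, fell as well (-0.27), and RAB4A, of fast recycling, rose by 0.18, a call that was lost after rescaling to TPM. The summed level of the 9 listed recycling genes was 208 to 220 FPKM in CTR and 226 to 229.9 FPKM in miR-8485, or 30.8% and 33.7% of the summed RAB level. On the TPM scale the sums of the groups overlapped and their order was reversed, with 649 TPM in CTR and 634 TPM in miR-8485.

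In the late endosomal and lysosomal class the genes that changed rose. RAB24, a RAB linked to autophagy (chr5:177301198-177303744), was at 1.26, 1.71 and 1.36 FPKM in the CTR libraries and 3.18, 2.81 and 2.72 FPKM in the miR-8485 libraries. The groups did not overlap, and RAB24 had a log2 fold change of 0.97 (SE 0.14, limma adjusted p = 6.7e-04), on 47 to 118 fragments per library. Of its annotated exon bases, 44.8% are shared with MXD3 on the same strand, so that fragments of the 2 genes may not be separable there. RAB29, a RAB of the trans-Golgi network and lysosomes that can recruit the kinase LRRK2 (chr1:205767986-205775460), was at 6.54, 6.47 and 7.05 FPKM in the CTR libraries and 10.3, 10.1 and 8.93 FPKM in the miR-8485 libraries. It rose in every library, by a log2 fold change of 0.54 (SE 0.07, limma adjusted p = 4.8e-04). RAB38, a RAB of lysosome-related organelles such as melanosomes, was the most abundant of the class over all libraries and was at 14.95, 11.4 and 13.7 FPKM in the CTR libraries and 13.8, 17.3 and 14.9 FPKM in the miR-8485 libraries. The groups overlapped, and neither RAB38 (0.20) nor RAB12 (-0.15) nor RAB9A (0.13), which returns cargo from late endosomes to the Golgi, passed the test. Without CTR replicate 1, RAB9A passed it at 0.20 (limma adjusted p = 0.0319). The summed level was 45.3 to 48.2 FPKM in CTR and 50.8 to 55.3 FPKM in miR-8485, but on the TPM scale these sums overlapped, with means of 139 and 146 TPM.

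Genes of ER-to-Golgi and intra-Golgi transport showed a fall of RAB1A beside a rise of its paralog. RAB1A, which tethers ER-derived vesicles to the Golgi (chr2:65070696-65130331), was at 71.1, 67.7 and 69.3 FPKM in the CTR libraries and 43.6, 47.5 and 45.8 FPKM in the miR-8485 libraries. The libraries were far apart, with a log2 fold change of -0.60 (SE 0.05, limma adjusted p = 3.8e-05), and RAB1A kept this call in all 18 other settings. RAB6A, of retrograde transport from and through the Golgi (chr11:73675638-73761137), was at 30.8, 30.2 and 31.4 FPKM in the CTR libraries and 22.8, 23.9 and 23.96 FPKM in the miR-8485 libraries. It fell without overlap, with a log2 fold change of -0.39 (SE 0.04, limma adjusted p = 2.0e-04). Near-identical retrocopies of RAB6A, RAB6C and RAB6D, were listed with at most 2 fragments in any library. RAB1B, which acts at the same step as RAB1A (chr11:66268533-66277492), was at 48.97, 48.3 and 53.99 FPKM in the CTR libraries and 63.03, 62.97 and 61.7 FPKM in the miR-8485 libraries. In contrast to RAB1A it rose in every library, by a log2 fold change of 0.31 (SE 0.05, limma adjusted p = 0.00148). The exons of RAB1A and RAB1B overlap genes on the opposite strand over 22.9% and 43.8% of their bases, and whether fragments were counted by strand is not given in the sources used here. RAB18, of the ER and lipid droplets, fell, with a log2 fold change of -0.28 (SE 0.06), a call lost after removal of a trend with GC content. RAB2A (-0.0049), RAB2B (-0.09), RAB6B (-0.17), RAB36 (0.18) and RAB33B (0.30) did not pass the test, and the sign of RAB2A differed between settings. Without CTR replicate 3, RAB6B passed it at -0.23 (limma adjusted p = 0.0430), and without CTR replicate 1, RAB2B did so at -0.17 (limma adjusted p = 0.0288). The summed level of the 17 listed genes was 196 to 205 FPKM in CTR and 179 to 181 FPKM in miR-8485, or 28.7% and 26.6% of the summed RAB level. RAB1A alone went from a mean of 69.4 to 45.6 FPKM, a larger fall than that of the sum, which went from 201 to 180 FPKM.

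On the deposited scale, the secretory class held the largest fall of the tested RAB genes and the highest fitted rise. That rise, of RAB37, is not resolved from those of RAB13 and of RAB24 in the late endosomal class (0.97, SE 0.14). RAB3B, a RAB of regulated exocytosis (chr1:51907956-51990764), was at 8.54, 9.82 and 9.85 FPKM in the CTR libraries and 2.76, 2.33 and 2.74 FPKM in the miR-8485 libraries. The highest miR-8485 library was below the lowest CTR library by a wide margin, with a log2 fold change of -1.81 (SE 0.09, limma adjusted p = 6.8e-06). The longest 3′ UTR of RAB3B, 11971 bases, holds 0 matches to bases 2 to 8 of the mimic. Its longest alternating run of T and G is 7 bases. RAB37, which acts on secretory granules (chr17:74670578-74747335), was at 1.104, 1.602 and 1.52 FPKM in the CTR libraries and 2.77, 2.898 and 3.001 FPKM in the miR-8485 libraries. It rose in every library, by a log2 fold change of 1.0003 (SE 0.15, limma adjusted p = 8.4e-04), on 101 to 290 fragments per library. Genes on the opposite strand cover 21.6% of the exon bases of RAB37. RAB13, a RAB of tight junctions and cell polarity (chr1:153981617-153986358), was at 5.44, 3.68 and 4.64 FPKM in the CTR libraries and 10.1, 8.54 and 8.45 FPKM in the miR-8485 libraries. Its groups did not overlap, and it had a log2 fold change of 0.98 (SE 0.14, limma adjusted p = 7.7e-04), with 24.8% of its exon bases also covered by another gene on the same strand. RAB26, a RAB of secretory granules (chr16:2140803-2154165), was at 9.12, 8.91 and 7.79 FPKM in the CTR libraries and 17.7, 14.5 and 16.3 FPKM in the miR-8485 libraries. Every miR-8485 library was higher, with a log2 fold change of 0.90 (SE 0.09, limma adjusted p = 1.3e-04). RAB8A, which directs vesicles from the Golgi to the cell surface and to cilia (chr19:16111629-16134234), was at 8.95, 9.595 and 9.74 FPKM in the CTR libraries and 6.42, 6.89 and 6.36 FPKM in the miR-8485 libraries. It fell without overlap, with a log2 fold change of -0.52 (SE 0.06, limma adjusted p = 2.4e-04), and 43.9% of its exon bases overlap other genes, mostly on the opposite strand (4.198% on the same strand).

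The most abundant secretory gene changed little. RAB10 was at 72.7, 72.2 and 71.8 FPKM in the CTR libraries and 60.8, 64.5 and 64.98 FPKM in the miR-8485 libraries. The groups did not overlap, and RAB10 fell, with a log2 fold change of -0.19 (SE 0.04). RAB8B (-0.19), RAB27A (-0.04), RAB3A (0.07) and RAB3D (0.09) did not pass the test, and the signs of RAB27A, RAB3A and RAB3D differed between settings. RAB8B passed it without miR-8485 replicate 2, at -0.27 (limma adjusted p = 0.0370). The summed level of the 12 listed secretory genes was 127 to 131 FPKM in CTR and 122 to 125 FPKM in miR-8485, so that it held 18.4% and 18.2% of the summed RAB level.

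**Figure D3:**
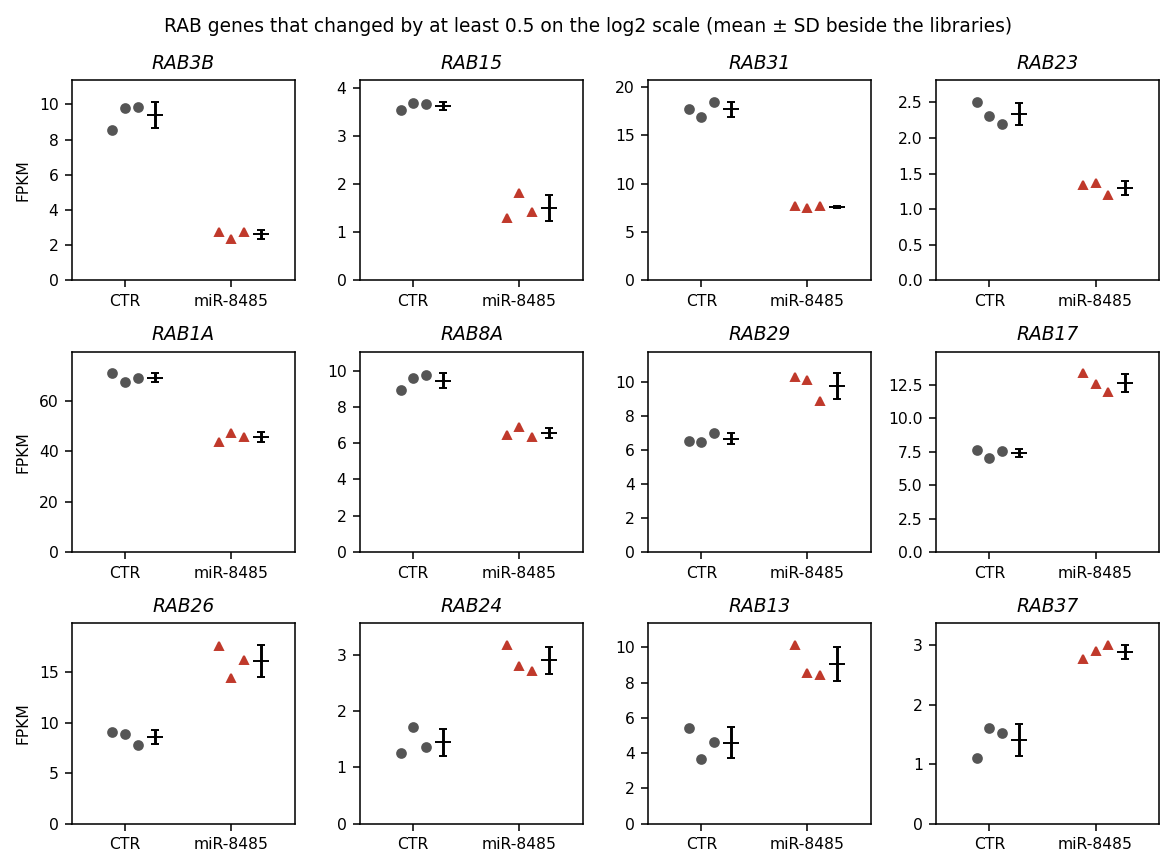
FPKM in each library of the 12 RAB genes that passed the test with an absolute log2 fold change of at least 0.5, each on its own axis from 0, with CTR as grey circles, miR-8485 as red triangles and the mean ± SD (n = 3) as a bar beside them. In all 12 panels the groups do not overlap, with RAB3B falling from 9.40 to 2.61 FPKM and RAB26 rising from 8.61 to 16.1 FPKM.

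Of the RAB genes placed in none of these compartments, RAB23 and RAB28 fell. RAB23, a negative regulator of Hedgehog signalling (chr6:57186992-57222314), was at 2.51, 2.31 and 2.198 FPKM in the CTR libraries and 1.33, 1.37 and 1.19 FPKM in the miR-8485 libraries. Its libraries did not overlap, and it had a log2 fold change of -0.80 (SE 0.12, limma adjusted p = 7.5e-04), on 112 to 223 fragments per library. A share of 57.8% of the exon bases of RAB23 overlaps BAG2 on the opposite strand. RAB28, a RAB of cilia (chr4:13361354-13484365), was at 7.84, 7.37 and 7.51 FPKM in the CTR libraries and 6.29, 5.83 and 6.48 FPKM in the miR-8485 libraries. It also fell in every library, with a log2 fold change of -0.29 (SE 0.06, limma adjusted p = 0.00479). RAB40B (-0.12) and RAB40C (0.20), substrate adaptors of ubiquitin ligases, did not pass the test.

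The 18 RAB genes with a mean below 1 FPKM over the 6 libraries had between 0 and 242 fragments per library. RAB32, a RAB of melanosomes and mitochondria, was at 0 fragments in every library, which allows a level of up to 0.129 to 0.137 FPKM on the basis of 3 fragments per library, counting error alone. RAB27B, which acts with RAB27A in the docking of secretory vesicles, had 147, 141 and 123 fragments in CTR and 63, 56 and 47 in miR-8485. The libraries did not overlap, and in a limma fit of all genes above 0, the alternative with no filter, RAB27B had a log2 fold change of -1.15 (SE 0.22, adjusted p = 0.0109). RAB40A had 22, 16 and 15 fragments in CTR and 52, 53 and 53 in miR-8485. Its value in that fit was 1.26 (SE 0.26, adjusted p = 0.0154). RAB30, a Golgi RAB, had 122, 104 and 146 fragments in CTR and 185, 242 and 224 in miR-8485, and its log2 fold change of 0.70 did not pass the test (limma adjusted p = 0.0622). In that fit the other 14 genes with fragments had adjusted p-values of at least 0.129, and they were RAB19, RAB43, RAB41, RAB4B, RAB34, RAB44, RAB33A, RAB42, RAB9B, RAB39B, RAB6D, RAB6C, RAB3C and RAB39A.

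Many RAB genes exist as close paralogs, so the balance within a pair was compared as the log2 ratio of FPKM in each library. Scaling between libraries cannot change this ratio, but removal of a trend with GC content or gene length can. In 13 of 19 listed pairs both genes were tested, and in 11 of these the ratios of the groups did not overlap. The pairs are not separate observations, since RAB3B, RAB11A and the RAB5 isoforms recur across pairs. For single genes this held for 66.5% of all tested genes, and the share over other pairs of genes was not computed. An exact permutation test of 3 against 3 libraries, two-sided, can give no p below 0.1, which all 11 pairs reached (0.118 after Benjamini-Hochberg adjustment over the 13 pairs), so that none could pass a threshold of 0.05. In 4 pairs the genes had opposite calls, and 3 of these rest on RAB5A, RAB11A or RAB11B, whose calls were lost in 2, 6 and 3 of 18 alternatives. RAB1A exceeded RAB1B in CTR, with log2 ratios of 0.54, 0.49 and 0.36, and lay below it in miR-8485, with -0.53, -0.41 and -0.43. The order of these paralogs thus differed between the groups in every library. For RAB5A over RAB5B the ratio was -0.11, -0.02 and -0.11 in CTR and 0.58, 0.45 and 0.62 in miR-8485. RAB11A over RAB11B went from a mean of -0.37 to -0.72, and RAB11A over RAB25 from -0.48 to -0.98. With the GC trend removed, the log2 fold changes were -0.0067 for RAB11A, 0.05 for RAB11B, -0.48 for RAB1A and 0.21 for RAB1B. This narrows the shifts of RAB11A over RAB11B and of RAB1A over RAB1B. The pairs with the widest shifts both involved RAB3B. RAB3A over RAB3B moved from 0.08 ± 0.12 (SD, n = 3) to 1.999 ± 0.23, and RAB3B over RAB3D from 0.76 ± 0.15 to -1.18 ± 0.19. RAB22A over RAB31 moved from -1.82 to -0.80. The ratios of RAB2A over RAB2B and of RAB5A over RAB5C overlapped between the groups.

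**Figure D4:**
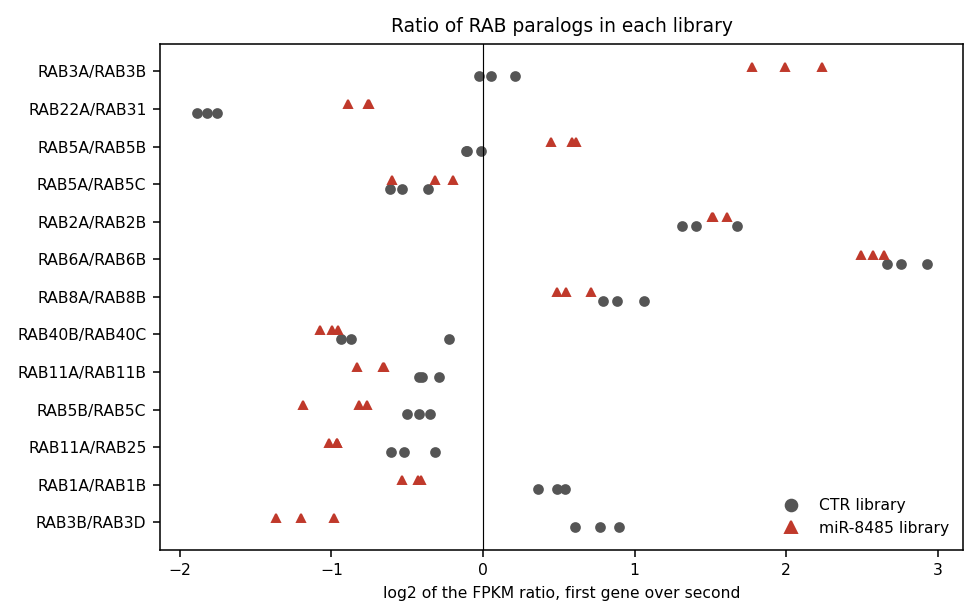
Log2 of the FPKM ratio of 13 pairs of RAB paralogs, first gene over second, in each CTR library (grey circles) and miR-8485 library (red triangles), ordered by the shift between groups. The ratio of RAB1A to RAB1B lies above 0 in CTR and below 0 in miR-8485, and only RAB2A/RAB2B and RAB5A/RAB5C overlap.

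The RAB genes that rose had a smaller gene length and more GC-rich transcripts than those that fell, given here as a description without a test. The median GC content of the canonical transcript was 56.2% for the 11 that rose, 41.2% for the 17 that fell and 46.5% for the other 15. Over all tested genes the same medians were 52.4%, 46.3% and 48.8%. Of the 19 RAB genes with a GC content of at least 50%, 8 rose and 4 fell, and of the 24 with less, 3 rose and 13 fell. Among all tested genes 35.5% rose and 24.9% fell above this limit, and 23.3% rose and 35.7% fell below it. RAB genes that rose had a median gene length of 2751 bases and a median 3′ UTR of 876 bases, against 5015 and 3226 bases for those that fell. Over all tested genes the medians were 3831 and 1057 bases for those that rose, against 5359 and 1862 bases for those that fell. As a description across genes, which share libraries and base composition, Spearman's rho of the log2 fold change was 0.41 with GC content, -0.47 with gene length and -0.53 with 3′ UTR length over the 43 RAB genes, and 0.18, -0.21 and -0.19 over all tested genes. With the GC trend of all genes removed, 12 RAB genes rose and 14 fell, and the median over the 43 was -0.02. With the gene length trend removed, 10 rose and 16 fell.

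**Figure D5:**
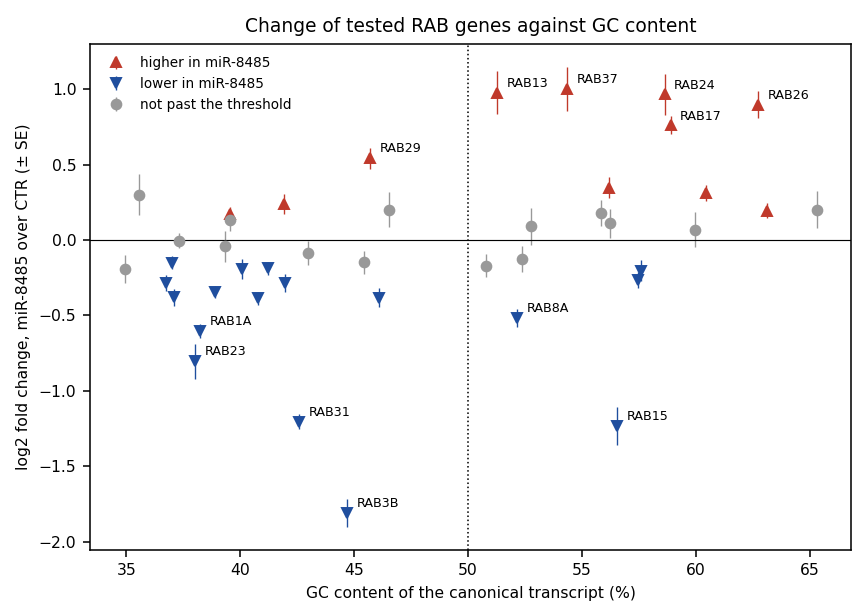
Log2 fold change of the 43 tested RAB genes (± standard error) against the GC content of the canonical transcript in percent, with genes that rose as red triangles, genes that fell as blue triangles and the others in grey, and a dotted line at 50%. RAB26, RAB24, RAB17, RAB37 and RAB13 lie to the right of the line, and RAB3B, RAB31, RAB23 and RAB1A to the left, while RAB15 and RAB8A, which fell, lie to the right and RAB29, which rose, to the left.

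The seed sites shown above were set beside the same calls. Of the 13 RAB genes with a match, 6 fell and 2 rose, with a median log2 fold change of -0.17, and of the 30 without, 11 fell and 9 rose, with a median of -0.02. Over all tested genes with an annotated 3′ UTR the medians were -0.15 and 0.02, and 44.1% and 29.2% fell. RAB3B, RAB15, RAB31 and RAB23, the 4 RAB genes with the largest falls, hold 0 matches. RAB1A, the next in size, holds 2. Only TGTGTGT, which pairs with bases 2 to 8, was searched, so shorter or shifted pairing with this repetitive mimic was not counted. The longest alternating run of T and G was 7 bases in the 3′ UTRs of RAB3B and RAB31, and 6 bases in those of RAB15 and RAB23. Use of the 3′ UTR of the canonical transcript gave the same 13 genes with a match.

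The genes that load, switch off, extract and read RAB proteins were followed as well, in a list of 119 genes that leaves out factors specific to RAB7. Of the 105 tested, 26 rose and 42 fell, or 24.8% and 40.0%, beside 29.1% and 30.5% of all tested genes, with a median log2 fold change of -0.12. After rescaling to TPM the share of risers among changed regulators went from 38.2% to 28.9%, and over all tested genes it went from 48.8% to 35.6%. With the gene length trend removed, 32 regulators rose and 35 fell, so that 47.8% of those that changed rose, beside 48.7% over all tested genes. Of 26 GTPase-activating proteins 6 rose and 11 fell. TBC1D16, reported to act on RAB4A, went from 5.18 to 1.698 FPKM, with a log2 fold change of -1.56 (SE 0.09, limma adjusted p = 1.1e-05). RABGAP1 had a log2 fold change of -0.98, and the largest rises were those of TBC1D9B with 0.54 and EVI5L with 0.50. Of 37 exchange factor genes 13 rose and 15 fell. RAB3GAP1 (-0.21), which fell, and RAB3GAP2 (-0.14), which did not pass the test, were counted in this role and not among the GTPase-activating proteins. RAB3IP, known as Rabin8 and the exchange factor of RAB8, went from 2.12 to 0.947 FPKM, with a log2 fold change of -1.09 (SE 0.13, limma adjusted p = 3.5e-04). DENND2C fell with a value of -0.83. TRAPPC6A, a core subunit of the TRAPP complexes that activate RAB1 and RAB11, rose from 10.2 to 32.4 FPKM, with a log2 fold change of 1.66 (SE 0.09, limma adjusted p = 1.1e-05). Of the 14 listed TRAPP subunits 12 were tested. Of these, TRAPPC6A included, 8 rose, among them TRAPPC12 with 0.83, and 2 fell, TRAPPC10 with -0.82 and TRAPPC8 with -0.65. Over all tested genes 29.1% rose and 30.5% fell. The TRAPP subunits thus hold 8 of the 13 rises and 2 of the 15 falls of the exchange factor genes, so the other genes of this role mostly fell where they changed. HPS1 and HPS4, which together form the exchange factor of RAB32 and RAB38, rose by 0.32 and 0.64.

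Among 34 effector genes 6 rose and 15 fell, or 17.6% and 44.1%, beside 29.1% and 30.5% of all tested genes. MLPH, or melanophilin, which links RAB27A to a myosin motor, went from 11.7 to 5.61 FPKM, with a log2 fold change of -1.04 (SE 0.06, limma adjusted p = 9.4e-06). WDR44, an effector of RAB11, fell with a log2 fold change of -0.85, and OPTN, an effector of RAB8, with -0.36. BICD2, the dynein adaptor bound by RAB6, rose from 4.69 to 8.48 FPKM, with a log2 fold change of 0.84 (SE 0.07, limma adjusted p = 6.9e-05), and RABEP2, of early endosome fusion, rose by 0.68. The RAB1 effectors USO1 and GOLGA2, which tether vesicles at the Golgi, rose by 0.34 and 0.48. Genes of like name went other ways, since BICD1 fell with -0.50 and RABEP1 with -0.25, and GOLGA5 (-0.12) did not pass the test. Of the 8 genes of prenylation and membrane extraction, 1 rose and 1 fell. RABGGTB, the catalytic subunit of the RAB geranylgeranyl transferase, fell from 18.98 to 13.8 FPKM, with a log2 fold change of -0.46 (SE 0.07, limma adjusted p = 8.2e-04). RABAC1, a membrane factor that promotes RAB release from its extraction factor, rose by 0.50. The extraction factor GDI2 (-0.09) and the escort proteins CHM (-0.09) and CHML (0.22) did not pass the test.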

How the data were processed

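RNA-seq was measured in 3 control (CTR) and 3 miR-8485 mimic libraries of HCT116 cells, grouped by the sample labels. Libraries were made with a VAHTS kit. After trimming with fastp, the authors aligned reads to hg38 (HISAT2 2.0.5) and counted fragments per gene (featureCounts 1.5.0-p3). The values deposited by the authors are FPKM, used here without further scaling, and in every library 100% of the values above 0 lie within 0.05 fragments of a whole number of fragments, which give the depth and the counting error of low genes.

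RAB genes were tested on log2(FPKM + 0.1) in limma 3.58.1 (R 4.3.3), two-sided and with the prior variance following expression, for all 12349 genes with a mean of at least 1 FPKM over the 6 libraries, with Benjamini-Hochberg adjustment over them. Gene totals, ratios and exact permutation tests were made in Python 3.11.15 (scipy 1.17.1, numpy 2.4.6, pandas 2.3.3) and plotted with matplotlib 3.10.9. The limma script was tested on simulated data with 12266 genes, in which it recovered 45 of 45 genes raised by 1, 41 of 43 lowered by 1, 40 of 49 raised by 0.5 and 37 of 47 lowered by 0.5 on the log2 scale, with 4 false calls. The changed genes were few and drawn from those with more fragments, and all genes shared the same dispersion. These numbers may therefore not hold for genes with few fragments or for data in which most genes change. 3′ UTRs, GC content and exon overlaps came from GRCh38 with GENCODE release 44.

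The RAB genes, their organelle classes, the regulator list and the tests were chosen with earlier results of these data known. RAB6D was put in the class of other locations after the values were seen, since no class had been given to it. Values in all libraries are given, per class, for up to 3 changed genes with the largest absolute log2 fold change and the most abundant gene, with RAB8A, RAB14 and RAB26 added. Of the regulators, up to 2 rises and 2 falls per role are named by rule. USO1, GOLGA2, OPTN, HPS1, HPS4, TRAPPC8, TRAPPC10, GDI2, CHM, CHML, BICD1, RABEP1 and GOLGA5 were added after their values were seen. The count of TRAPP subunits was not planned. Alternatives were other pseudocounts (1 and 0.01), no filter or a minimum mean of 5 FPKM, scaling by quantiles, by median of ratios or to TPM, removal of a gene length or a GC trend, no variance trend, voom on recovered fragments, a replicate block, and each library left out in turn.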

Additional observations from a re-analysis of the deposited data

How the results depend on the processing

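The precision of RAB genes with few fragments is limited by depth, 3 libraries per group cannot give an exact permutation p below 0.1, and fragments shared with overlapping genes or retrocopies could not be separated. Of the 28 RAB genes that changed, 21 kept their call in every alternative in which they were tested (16 genes in 18 alternatives, and 5 in 17, since a minimum mean of 5 FPKM leaves them out), 7 lost it in at least 1, and 0 changed sign. RAB20 lost it in 8, RAB22A in 9, RAB11A in 6, RAB11B in 3, RAB5A in 2, and RAB4A and RAB18 in 1. Of the 15 others, 6 passed the test in at least 1 alternative. The causes were not tested.

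The median log2 fold change of RAB genes was -0.11 with no filter, which tests more genes, -0.0049 under a minimum mean of 5 FPKM, which tests 31 RAB genes, -0.20 after rescaling to TPM and -0.0229 with the GC trend removed, an alternative chosen after seeing the data. It was -0.0932 to -0.0475 with a library left out. Rescaling to TPM gave 0 early endosomal rises, 2 recycling rises, 1 late endosomal fall and 5 ER-Golgi falls. Under that minimum there were 3 early endosomal falls of 5 genes tested, 1 late endosomal rise, 1 fall in other locations, and 17 rises and 16 falls of regulators. No filter gave 3 early endosomal falls and 1 rise in other locations, and quantile normalization 3 early endosomal falls. Removal of the length trend gave 1 late endosomal fall, and removal of the GC trend 2 ER-Golgi rises. With a library left out, early endosomal genes gave 0 to 1 rises and 3 to 5 falls, where leaving out miR-8485 replicate 3 gave 0 rises.

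Libraries with the same replicate number did not deviate together (r = -0.06 to 0.07 across genes), so the numbers were not taken to pair them. With the replicate number as a block 11 RAB genes rose and 17 fell, as without it, with RAB12, the 1 late endosomal fall, gained and RAB22A lost.

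The sign changed for 6 RAB genes that did not pass the test. RAB2A was at 0.00594 with median-of-ratios scaling, 0.0242 with quantile normalization, 0.0379 with the length trend removed, 0.134 with the GC trend removed, and -0.0405 to 0.0155 with a library left out. RAB3A was at -0.0447 on the TPM scale, -0.0907 without the length trend, -0.0282 without the GC trend, and -0.0497 to 0.168 with a library left out. RAB3D was at -0.0232 on the TPM scale and -0.0445 to 0.199 with a library left out. RAB5C was at -0.00466 on the TPM scale and RAB9A at -2.01e-04 without the length trend. RAB27A was at 0.0718 without the GC trend and -0.068 to 0.00176 with a library left out.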
